A study of Xenopus laevis with 12 samples.

Results

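The transcripts described here are 8 genes of the frog Xenopus laevis, vezf1.L, vezf1.S, tfap2c.S, stil.L, rbm7.L, rbm7.S, dusp11.S and ier5l.L, out of 51061 genes in the count files. They were picked as the named genes with the largest rise in the libraries labelled Staufen over those labelled IgG. Only named genes that met conditions on level, significance and overlap, given below, were eligible. The 8 were found by name in the authors' deposited tables, which name 3964 genes, and all 8 were among the 20803 genes with enough counts to be tested. Their values in Staufen against IgG therefore describe how they were chosen and support nothing by themselves. The suffixes .L and .S mark homeologs, the copies of a gene on the long and short chromosome sets that the duplication of this genome left behind.

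RNA came from lysate of oocytes pooled over stages II and III. Column fractions enriched for L-bodies were combined, and the antibody used to pull RNA down from them was, by label, one to Staufen, one to hnRNPab or, as the control, IgG. Each antibody has 4 libraries, numbered 1 to 4, and all 12 share the same oocyte stages and the same fractionation. The labels do not say whether the numbers stand for separate frogs, so the spread behind the p-values is that of libraries and may be technical.

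L-bodies are RNA-protein condensates of the Xenopus oocyte that hold RNAs on their way to the vegetal cortex. Staufen is a protein that binds double-stranded RNA, and hnRNPab is an RNA-binding protein of the same transport particles; both are known for the vegetal localization of maternal mRNA in this cell. An immunoprecipitation from such fractions can recover RNA that shares a particle with the protein as well as RNA attached to it. A level here is a share of the recovered RNA and not the amount of a transcript in the oocyte.

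Some properties of the whole series touch every value below. Gene counts ran from 14147584 to 18678540 per library in the libraries labelled Staufen, from 17635063 to 19202568 in those labelled hnRNPab and from 17433273 to 22103431 in those labelled IgG, and reads outside annotated exons made up 13.4% to 14.8%, 11.01% to 12.9% and 16.9% to 19.6% of singly aligned reads. Libraries with the same replicate number deviated together, with r across genes of 0.783 to 0.875 between their deviations from the group means, and in every group the library numbered 1 stood apart from the other numbers. The labels also do not match the authors' deposited tables. Over 2426 tested genes of the authors' deposited Staufen table, the deposited log2 fold change differed from Staufen against IgG, as labelled, by a median of 1.26, from hnRNPab against IgG by 0.468 and from hnRNPab against Staufen by 0.487, where the median standard error of these fits was 0.156. The authors' deposited hnRNPab table ran against its label: of 1930 tested genes, 230 had the sign of hnRNPab against IgG as labelled, with a median difference of 1.98, and 1700 had the sign of IgG against hnRNPab, with a median difference of 0.518. No labelled comparison matched either table to within its standard error, so every direction below belongs to libraries as labelled, with no claim about the antibody used. The levels differed too: log2 CPM in the deposited Staufen table minus that over the 12 libraries had a median of -1.08 over 2422 genes. Its 5th to 95th percentiles were -1.22 to -0.877, and the cause was not tested. Of 18 oocyte marker symbols 5 are named by the tables, and their summed level was 1185 to 1467 CPM in the libraries labelled Staufen, 1981 to 2405 in those labelled hnRNPab and 1289 to 1550 in those labelled IgG. Of the markers of other cell types, the only named ones were foxo1.L of follicle and theca (50.3 to 72.6 CPM, 40.0 to 53.4 and 48.1 to 72.7 in the same order of groups) and slc4a1.L of blood (27.0 to 40.5, 104 to 163 and 24.97 to 35.7). None of the 11 markers of stroma and endothelium is named. The part of follicle or blood RNA in the results was not tested, and in bulk libraries fewer cells of a type and less RNA per cell cannot be told apart. Levels here are shares of the RNA pulled down, so a marker difference between labels does not give a difference in cells.

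The transcription factor genes come first. Levels are CPM, counts scaled to the TMM-normalized size of each library. The gene vezf1 encodes a zinc finger transcription factor, known in the mouse for the growth of blood vessels, and both homeologs are in the set. The level of vezf1.S (gene7337) was 77.9, 127, 140.0 and 139 CPM in Staufen libraries 1 to 4, 123, 168, 181 and 179 CPM in hnRNPab libraries 1 to 4, and 30.0, 43.6, 41.9 and 40.8 CPM in IgG libraries 1 to 4. Every Staufen library and every hnRNPab library was above every IgG library. Library 1 was the lowest of its group under all 3 labels, and Staufen library 1 was the only Staufen library below 100 CPM. For vezf1.L (gene16961) the levels were 56.5, 84.3, 95.6 and 99.4 CPM in Staufen libraries 1 to 4, 92.5, 129, 143 and 156 CPM in hnRNPab libraries 1 to 4, and 23.3, 32.4, 31.2 and 35.0 CPM in IgG libraries 1 to 4. The order of the groups was the same as for vezf1.S, with the Staufen and hnRNPab ranges overlapping and IgG apart below both. The means were 121 ± 29.5 CPM in Staufen libraries, 163 ± 27.2 in hnRNPab libraries and 39.1 ± 6.16 in IgG libraries for vezf1.S (SD, n = 4 each), and 83.9 ± 19.4, 130 ± 27.5 and 30.5 ± 5.01 for vezf1.L in the same order.

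The AP-2 factor gene tfap2c encodes a transcription factor of early ectoderm and neural crest. The level of tfap2c.S (gene18947) was 157, 189, 205 and 198 CPM in Staufen libraries 1 to 4, 267, 231, 366 and 298 CPM in hnRNPab libraries 1 to 4, and 80.3, 107, 73.9 and 79.3 CPM in IgG libraries 1 to 4. The 3 groups did not overlap, with hnRNPab highest and IgG lowest. IgG library 2 was the highest of its group while hnRNPab library 2 was the lowest of its own. The means were 187 ± 21.3 CPM in Staufen libraries, 291 ± 57.6 in hnRNPab libraries and 85.2 ± 15.1 in IgG libraries (SD, n = 4 each).

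The product of stil is needed for centriole duplication, where it acts with the kinase Plk4 and the cartwheel protein Sass6. The level of stil.L (gene12998) was 558, 539, 647 and 716 CPM in Staufen libraries 1 to 4, 633, 639, 717 and 744 CPM in hnRNPab libraries 1 to 4, and 238, 222, 227 and 235 CPM in IgG libraries 1 to 4. The IgG libraries had a mean of 230.3 CPM and an SD of 7.38 CPM, a coefficient of variation of 3.20%, the smallest of the 8 transcripts in any group. Staufen libraries averaged 615 ± 82.3 CPM and hnRNPab libraries 683 ± 55.5 (SD, n = 4 each), and these neighbours overlapped.

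**Figure D1:**
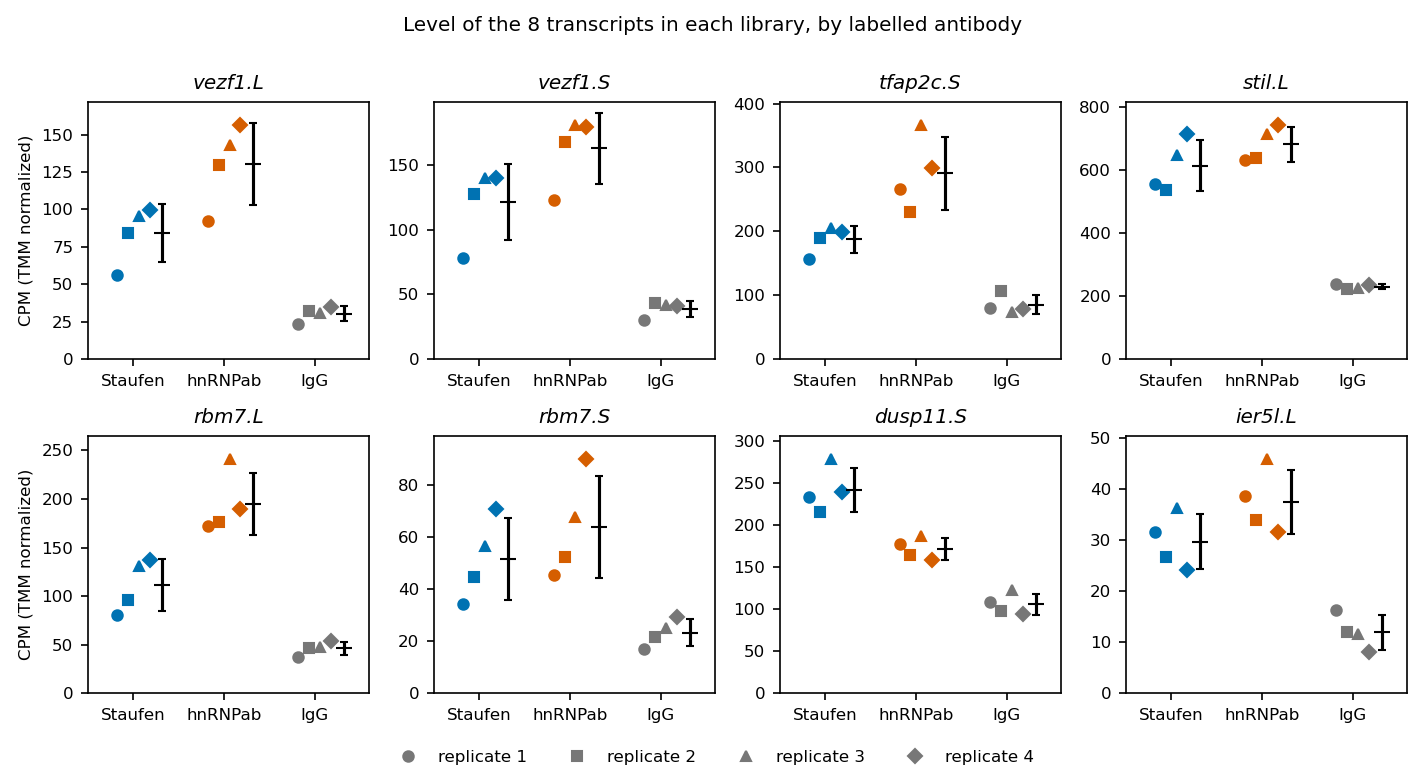
CPM (TMM normalized, linear axis from 0) of each of the 8 transcripts in the 12 libraries, grouped by label, with marker shapes for replicate numbers 1 to 4 and bars for the mean ± SD (n = 4). IgG libraries lie below all Staufen and hnRNPab libraries in each panel, and dusp11.S is the transcript whose Staufen libraries lie above its hnRNPab libraries.

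Both rbm7 homeologs are in the set. In human cells RBM7 is the RNA-binding subunit of the nuclear exosome targeting complex, which hands nuclear transcripts to the exosome for decay. The level of rbm7.L (gene2527) was 81.1, 96.4, 131 and 138 CPM in Staufen libraries 1 to 4, 172, 176, 241 and 190 CPM in hnRNPab libraries 1 to 4, and 37.9, 46.7, 47.2 and 53.5 CPM in IgG libraries 1 to 4. The 3 groups did not overlap, again with hnRNPab highest and IgG lowest. For rbm7.S (gene2370) the levels were 34.2, 44.7, 56.5 and 70.9 CPM in Staufen libraries 1 to 4, 45.6, 52.4, 67.7 and 90.0 CPM in hnRNPab libraries 1 to 4, and 17.3, 21.6, 25.1 and 29.5 CPM in IgG libraries 1 to 4. For rbm7.S, library 1 was the lowest and library 4 the highest under all 3 labels, and Staufen and hnRNPab libraries overlapped. The means were 112 ± 27.1 CPM in Staufen libraries, 195 ± 31.6 in hnRNPab libraries and 46.3 ± 6.42 in IgG libraries for rbm7.L (SD, n = 4 each), and 51.6 ± 15.8, 63.9 ± 19.7 and 23.4 ± 5.18 for rbm7.S in the same order.

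In human cells DUSP11 is a phosphatase that removes phosphates from the triphosphate at the start of RNAs. The level of dusp11.S (gene5993) was 234, 216, 279 and 240 CPM in Staufen libraries 1 to 4, 178, 164, 187 and 159 CPM in hnRNPab libraries 1 to 4, and 109, 98.7, 123 and 94.2 CPM in IgG libraries 1 to 4. Here Staufen was the highest group, hnRNPab the middle and IgG the lowest, with no overlap. The means were 242 ± 26.6 CPM in Staufen libraries, 172 ± 13.1 in hnRNPab libraries and 106 ± 12.7 in IgG libraries (SD, n = 4 each), and library 3 was the highest under all 3 labels.

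The last member, ier5l.L (gene1570), belongs to the immediate early response gene family and was measured with the fewest reads, 178 to 326 counts in IgG libraries. Its level was 31.7, 26.7, 36.3 and 24.2 CPM in Staufen libraries 1 to 4, 38.7, 33.9, 45.8 and 31.5 CPM in hnRNPab libraries 1 to 4, and 16.4, 12.02, 11.5 and 8.01 CPM in IgG libraries 1 to 4. Library 4 was the lowest under all 3 labels, which is where vezf1.L and rbm7.S were highest. Staufen libraries averaged 29.7 ± 5.38 CPM, hnRNPab libraries 37.5 ± 6.29 and IgG libraries 11.98 ± 3.42 (SD, n = 4 each), and Staufen and hnRNPab overlapped.

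In Staufen against IgG, the comparison that chose them, the 8 transcripts were between 2.20-fold (tfap2c.S) and 3.10-fold (vezf1.S) higher, with log2 fold changes of 1.14 to 1.63 and standard errors of 0.101 (stil.L) to 0.261 (rbm7.S). The median of all tested genes was -0.01 on the same log2 scale, and 4.45% of them were called higher by edgeR's quasi-likelihood test at an adjusted p below 0.05. All 8 were so called, and 8 of 8 had no overlap between the groups, beside 6.67% of tested genes, and nothing is read from either count because the choice was made on this comparison. For rbm7.S the edgeR adjusted p was above 0.05 without IgG library 2 (0.0631), Staufen library 3 (0.0516) or Staufen library 4 (0.0568). The 8 head the list of 141 genes that had a usable name, a mean of at least 5 CPM over the 2 groups, a call and no overlap. At its lower edge were rbm7.S (log2 1.14) and tfap2c.S (1.14). Next after them were nptxr.L (gene36302) at 14.1 ± 3.65 CPM in Staufen libraries and 6.47 ± 1.64 in IgG libraries (2.18-fold), wac.S (gene4727) at 314 ± 73.1 and 151 ± 25.4 CPM (2.08-fold), and c3orf38.L (gene15361) at 23.9 ± 4.48 and 11.6 ± 2.35 CPM (2.06-fold). Names limit the set: 36 genes with no usable name met the other conditions with a fold change at least as large as that of tfap2c.S, and the 8 transcripts held places 13 to 92 among all tested genes ordered by fold change.

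The sign of the difference was the same within every replicate number. With no overlap between Staufen and IgG libraries it could not have been otherwise, so nothing is read from it. Within numbers, log2 CPM in the Staufen library minus that in the IgG library ran from 1.37 to 1.77 for vezf1.S, from 1.27 to 1.61 for vezf1.L, from 1.23 to 1.61 for stil.L and from 0.82 to 1.47 for tfap2c.S. It ran from 1.05 to 1.47 for rbm7.L, from 0.98 to 1.26 for rbm7.S, from 1.11 to 1.35 for dusp11.S and from 0.95 to 1.64 for ier5l.L. For all 8 the lowest 2 of these 4 differences were those of numbers 1 and 2. How many of all tested genes share this order was not computed. The 8 were measured in the same libraries, so nothing is read from this count. For rbm7.S the level differed more between numbers than the difference did: averaged over the 3 labels, library 1 deviated by -0.46 and library 4 by 0.47 from the group means on the log2 CPM scale, whereas its difference spanned 0.98 to 1.26. The same average was -0.45 for vezf1.S and -0.46 for vezf1.L in number 1, and 0.22 for ier5l.L in that number.

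**Figure D2:**
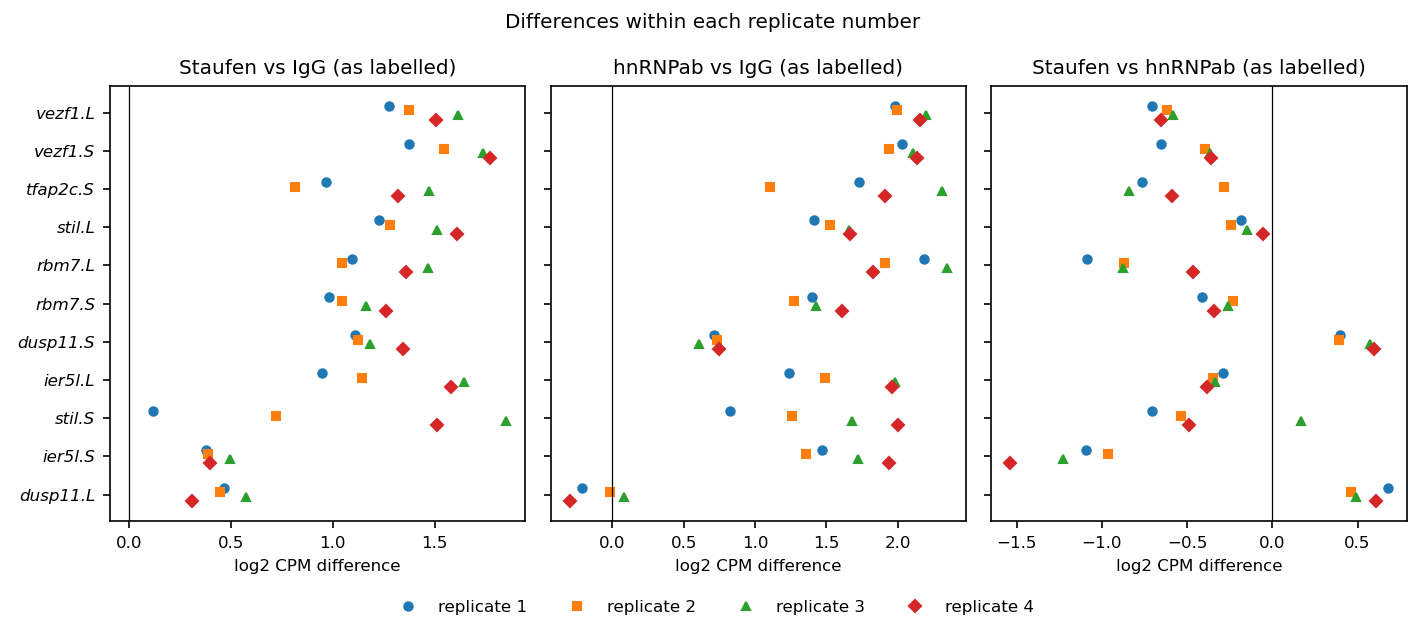
Difference in log2 CPM between labelled groups within each replicate number (x axis), for the 8 transcripts and the 3 further homeologs (rows). In Staufen against IgG all 32 differences of the 8 transcripts are above 0, as the lack of overlap between these groups requires. In Staufen against hnRNPab only those of dusp11.S are above 0 among the 8.

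All 8 transcripts rose in the libraries labelled hnRNPab over IgG as well, and 7 of the 8 had a larger fold change there than in Staufen over IgG. The same was so for 2251 of 2426 tested genes of the authors' deposited Staufen table, so it does not set the 8 apart from that table. Over all tested genes the median log2 fold change in Staufen against hnRNPab was 0.02. Staufen against IgG and hnRNPab against IgG share the IgG libraries, so their values are set side by side without a test of likeness. Since those libraries took part in the choice, which favours transcripts that are low in them, the test of hnRNPab against IgG is not independent of it. The rises were 4.28-fold for vezf1.L (log2 2.10, SE 0.209, edgeR adjusted p = 1.1e-05), 4.202-fold for rbm7.L, 4.16-fold for vezf1.S, 3.41-fold for tfap2c.S, 3.13-fold for ier5l.L, 2.97-fold for stil.L and 2.74-fold for rbm7.S. The smallest was that of dusp11.S at 1.62-fold (log2 0.70, SE 0.107, adjusted p = 0.000303), the transcript that was higher under the Staufen label. Adjusted p-values of the 8 ran from 3.97e-07 to 0.000996 in edgeR's quasi-likelihood test, and hnRNPab and IgG libraries did not overlap for any of the 8. Among all tested genes 16.3% were called higher in this comparison and 15.2% were higher with no overlap. Of tested genes in the authors' deposited Staufen table, which lists all 8, 70.5% were called higher and 66.6% were higher with no overlap, so most genes of that table rose here too. The median log2 fold change was 1.71 for the 8 transcripts, 0.84 for the genes of that table and -0.02 for all tested genes. In the order of all tested genes vezf1.L stood at place 123 and dusp11.S at place 2337 of 20803.

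**Figure D3:**
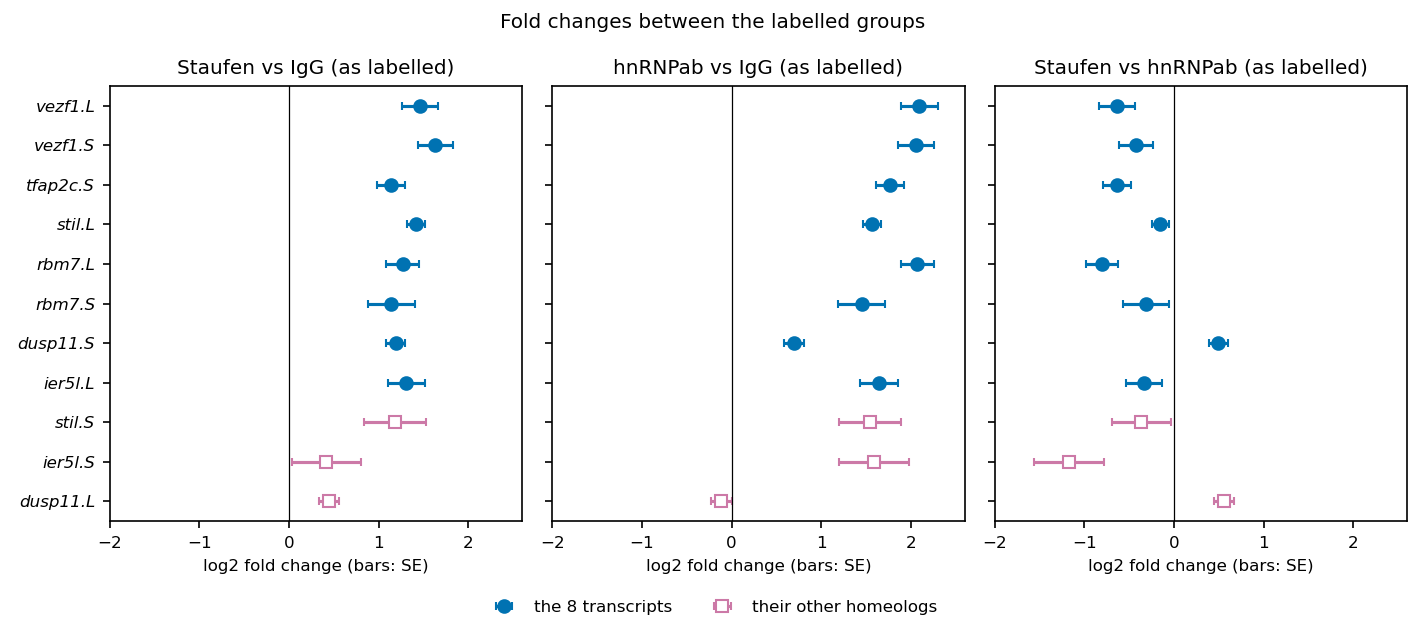
Log2 fold change (x axis, bars are standard errors from edgeR) in the 3 labelled comparisons for the 8 transcripts and for the 3 further homeologs named by the deposited tables. In hnRNPab against IgG the 8 lie between 0.70 and 2.10, and in Staufen against hnRNPab all but dusp11.S lie below 0.

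Set directly against the libraries labelled hnRNPab, those labelled Staufen held less of 3 of the 8 transcripts and more of 1, and 4 did not pass. The Staufen libraries took part in the choice, which favours transcripts that are high in them. The transcript that rose was dusp11.S, by 1.41-fold (log2 0.49, SE 0.107, adjusted p = 0.00348, edgeR). Those that fell were rbm7.L (log2 -0.80, SE 0.177, adjusted p = 0.00379), tfap2c.S (-0.63, SE 0.156, 0.00767) and vezf1.L (-0.64, SE 0.201, 0.0283). The log2 fold change was -0.42 for vezf1.S (SE 0.193, adjusted p = 0.117), -0.34 for ier5l.L (SE 0.204, 0.246), -0.31 for rbm7.S (SE 0.257, 0.411) and -0.15 for stil.L (SE 0.099, 0.285). Among all tested genes 16.3% were called lower and 16.5% higher, while in the deposited Staufen table of the authors 71.7% were lower and 1.61% higher. With the replicate number as a block, 7 of the 8 fell and dusp11.S rose (adjusted p 1.86e-12 to 0.0120). Under the block 31.5% of all tested genes were called lower and 33.1% higher, and 86.9% and 4.29% of those in the deposited table. Within replicate numbers the sign was the same in 4 of 4 numbers for each of the 8. For dusp11.S, rbm7.L and tfap2c.S the lack of overlap between the groups required this. The share of all tested genes with the same sign in 4 of 4 numbers was not computed, so nothing is read from this count. Of these differences within numbers, those of stil.L lay nearest to 0, at -0.25 to -0.05. The call of vezf1.L was lost without Staufen library 2 (adjusted p = 0.0562) or without hnRNPab library 2 (0.0518), 3 (0.0712) or 4 (0.0846), and vezf1.S passed without hnRNPab library 1 (0.0465) and with all 3 libraries numbered 1 left out (0.00159).

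**Figure D4:**
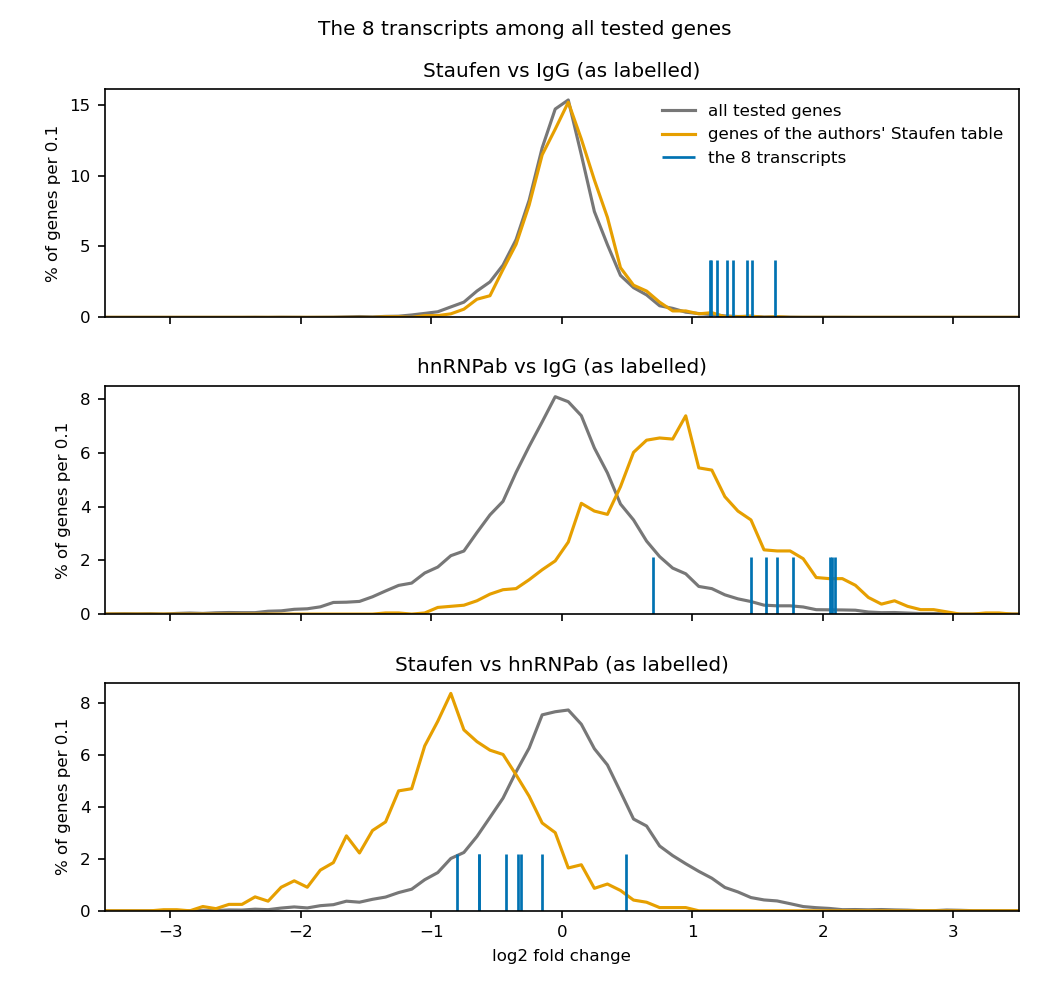
Share of genes per 0.1 of log2 fold change (y axis) against the log2 fold change (x axis) for all tested genes and for genes of the authors' deposited Staufen table, with a blue line for each of the 8 transcripts. The table's curve lies with that of all genes in Staufen against IgG (median 0.03 against -0.01), and away from it in hnRNPab against IgG (0.84 against -0.02) and in Staufen against hnRNPab (-0.81 against 0.02).

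The deposited tables name the other homeolog of stil, ier5l and dusp11. These were not chosen for their rise. At 0.880 to 1.97 CPM in Staufen libraries, 1.51 to 1.74 in hnRNPab libraries and 0.315 to 0.803 in IgG libraries, stil.S (gene32957) rested on 7 to 30 counts per library. Its log2 fold change was 1.18 in Staufen against IgG (SE 0.347, edgeR adjusted p = 0.0607, and 0.00266 with the replicate block), beside 1.42 for stil.L. The call was made without IgG library 1 (0.0384) and without all libraries numbered 1 (0.0314). The libraries labelled hnRNPab held more stil.S than IgG libraries by 1.55 on the log2 scale (SE 0.345, adjusted p = 0.00405).

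The other homeolog of dusp11 was measured about as deeply. The level of dusp11.L (gene49693) was 145, 129, 162 and 156 CPM in Staufen libraries 1 to 4, 90.5, 93.3, 115 and 102 CPM in hnRNPab libraries 1 to 4, and 105, 94.2, 109 and 126 CPM in IgG libraries 1 to 4. Staufen libraries were above all others, while hnRNPab and IgG libraries overlapped. In Staufen against IgG dusp11.L rose 1.36-fold (log2 0.45, SE 0.113, edgeR adjusted p = 0.0310, and 6.43e-08 with the replicate block), against 2.28-fold for dusp11.S. This call was lost without any one of IgG libraries 1, 2 and 3 and Staufen libraries 1, 3 and 4 (adjusted p 0.0532 to 0.103), without all libraries numbered 1 (0.0628) and in a fit on the 2 groups alone (0.0646). The value of dusp11.L in hnRNPab against IgG was -0.11 (SE 0.113, adjusted p = 0.508), and in Staufen against hnRNPab it rose by 0.56 (SE 0.113, 0.00219). The log2 ratio of dusp11.L to dusp11.S was -0.78 ± 0.150 in hnRNPab libraries and 0.03 ± 0.264 in IgG libraries (SD, n = 4 each), with no overlap (two-sided exact permutation test, p = 0.0286, the smallest that 4 against 4 can give, adjusted p = 0.114 over 4 tests of dusp11 and ier5l that were chosen after their values were seen). In Staufen libraries it was -0.71 ± 0.072, and Staufen against hnRNPab gave p = 0.429 (adjusted 0.571) in the same exact test. The choice favoured dusp11.S for high Staufen and low IgG values and did not take dusp11.L. Each of these comparisons of the ratio shares libraries with that choice, so nothing is read from their tests.

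For ier5l the other homeolog passed in hnRNPab over IgG and not in Staufen over IgG. The level of ier5l.S (gene8878) was 60.7, 30.6, 38.1 and 20.6 CPM in Staufen libraries 1 to 4, 130, 59.8, 89.4 and 60.1 CPM in hnRNPab libraries 1 to 4, and 46.7, 23.3, 27.0 and 15.6 CPM in IgG libraries 1 to 4. Library 1 was the highest under all 3 labels, and Staufen and IgG libraries overlapped. The log2 fold change of ier5l.S in Staufen against IgG was 0.42 (SE 0.387, adjusted p = 0.724; with the replicate block 3.2e-05), beside 1.31 for ier5l.L. Over IgG it rose in hnRNPab libraries by 1.59 (SE 0.393, adjusted p = 0.00755), beside 1.65 for ier5l.L. In Staufen against hnRNPab it fell by 1.17 (SE 0.388, adjusted p = 0.0350), a call lost without hnRNPab library 1 or 3 or Staufen library 2, 3 or 4 (0.0703 to 0.121). The log2 ratio of ier5l.L to ier5l.S was -0.24 ± 0.494 in Staufen libraries, -1.11 ± 0.425 in hnRNPab libraries and -1.16 ± 0.265 in IgG libraries, and Staufen against hnRNPab gave p = 0.0857 (adjusted 0.171) in the two-sided exact permutation test. The choice favoured ier5l.L for high Staufen values and did not take ier5l.S, so nothing is read from this test.

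For the 2 symbols with both homeologs in the set, the ratio of the copies was tested in the other 2 comparisons, which share libraries with the one that chose them. The log2 ratio of vezf1.L to vezf1.S was -0.52 ± 0.061 in Staufen libraries, -0.33 ± 0.092 in hnRNPab libraries and -0.36 ± 0.097 in IgG libraries (SD, n = 4 each). Staufen against hnRNPab did not overlap (two-sided exact permutation test, p = 0.0286, adjusted p = 0.114 over 4 tests), and hnRNPab against IgG gave p = 0.543. The log2 ratio of rbm7.L to rbm7.S was 1.13 ± 0.129 in Staufen libraries, 1.64 ± 0.383 in hnRNPab libraries and 1.00 ± 0.137 in IgG libraries. Here hnRNPab against IgG gave p = 0.0857 and Staufen against hnRNPab p = 0.114 (both adjusted 0.152) in the same exact test. No ratio passed after adjustment, and exact sign flips within replicate numbers cannot go below p = 0.125. Without hnRNPab library 4, which had the lowest rbm7 ratio of its group at 1.08, rbm7 passed in both comparisons and vezf1 in Staufen against hnRNPab (adjusted p = 0.0381 each, exact test). The vezf1 difference was then -0.15, smaller than the -0.20 with all libraries. Its unadjusted p was already the smallest possible with all libraries, and its adjusted p depends on the rbm7 tests adjusted with it. The pass of vezf1 is therefore no sign of a larger difference. Reads of near-identical copies can be assigned to the wrong one, and how far this moved the ratios was not tested.

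The authors' deposited Staufen table gave its own fold changes for these genes, and none of the 8 is in the hnRNPab table. The deposited log2 fold changes were 2.06 for tfap2c.S, 2.02 for rbm7.L, 1.72 for stil.L, 1.46 for vezf1.S, 1.46 for vezf1.L, 1.44 for ier5l.L, 1.32 for dusp11.S and 1.097 for rbm7.S. By this value the 8 held places 173 (tfap2c.S) to 1603 (rbm7.S) among the 2457 genes of the authors' deposited table. In the libraries as labelled, tfap2c.S was at 1.14 in Staufen against IgG, 1.77 in hnRNPab against IgG and 0.63 in hnRNPab against Staufen. For rbm7.L these values were 1.27, 2.07 and 0.80, and for vezf1.L 1.46, 2.10 and 0.64. For dusp11.S the labelled values were 1.19, 0.70 and -0.49. Of these 3 labelled comparisons, the authors' deposited value lay nearest to Staufen against IgG for 5 of the 8 (vezf1.L, vezf1.S, ier5l.L, rbm7.S and dusp11.S) and nearest to hnRNPab against IgG for 3 (tfap2c.S, rbm7.L and stil.L). The 8 were chosen for high values in Staufen against IgG, so nothing is read from this count. Over the 2426 tested genes of the deposited Staufen table, the median difference was 1.26 from Staufen against IgG and 0.468 from hnRNPab against IgG. Of the further homeologs, dusp11.L is in both of the authors' deposited tables, at 0.94 in the Staufen and 1.04 in the hnRNPab table, whereas the deposited Staufen table alone lists stil.S (1.57) and ier5l.S (1.21).

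**Figure D5:**
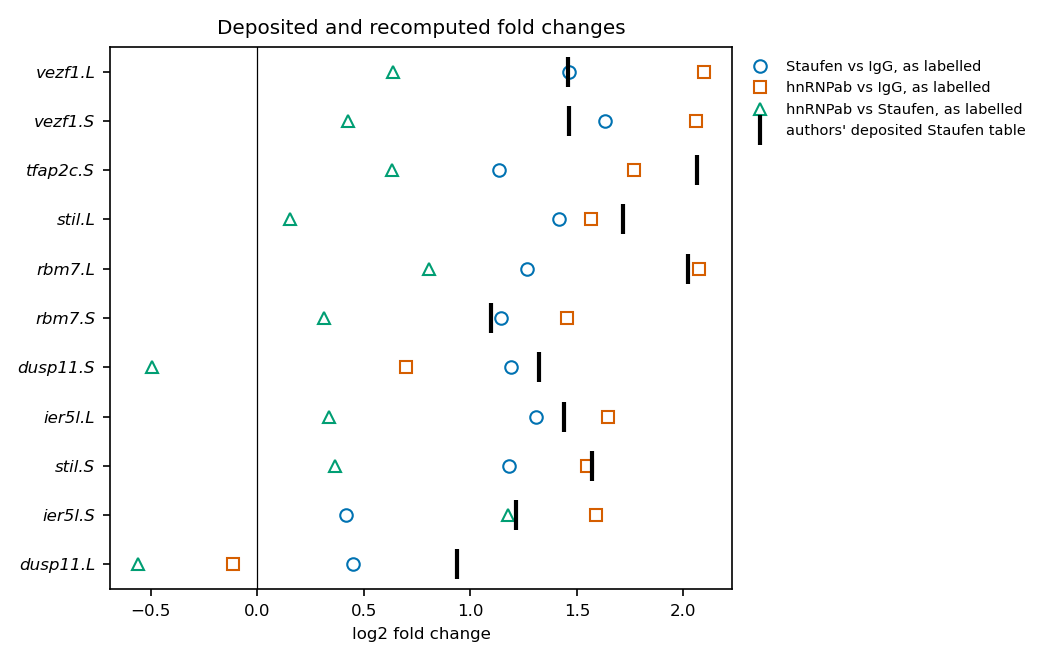
Log2 fold change (x axis) of the 8 transcripts and 3 further homeologs in the authors' deposited Staufen table (black bars) and in 3 comparisons of the libraries as labelled (open symbols). The deposited values run from 0.94 (dusp11.L) to 2.06 (tfap2c.S) and follow no one of the labelled comparisons across all genes shown.

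The genes whose profile over the 12 libraries was most like that of each transcript were found by the root mean square difference of log2 CPM after centring each gene on its own mean, among 2666 other named genes. Nearest to vezf1.L was vezf1.S, at a difference of 0.113, followed by rbm7.L at 0.186. For rbm7.L the nearest were vezf1.L and tfap2c.S (0.238). These values compare with a median of 0.901 over all candidates for vezf1.L. The genes nearest to stil.L were 2 identifiers that both carry the name dyrk1a.2.L, gene35315 at 0.233 and gene50575 at 0.246. The first of them was also nearest to tfap2c.S (0.190), ahead of brd3.S (0.226). Nearest to ier5l.L was c3orf38.L at 0.169, nearest to rbm7.S were drosha.S (0.276) and zcchc8.L (0.280), and nearest to dusp11.S were stau1.S (0.207) and cttn (0.209). All these profiles share the same 12 libraries, their depth and their replicate numbers. They include the Staufen and IgG libraries on which the transcripts were chosen for a large rise. Chosen transcripts are therefore brought near each other by the choice itself, and nothing is read from their nearness. The median over all candidates, most of which were not so chosen, is no fair reference for it.

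Other genes of the processes these transcripts belong to were counted from 8 lists. Since only genes in the authors' deposited tables have names, each list holds the members that those tables select, 105 genes in all without the 8. In Staufen against IgG 9 of the 105 rose and 5 fell, beside 4.45% and 3.33% of all tested genes. With the replicate block 27 rose and 36 fell, beside 19% and 20.5%. Between hnRNPab and IgG 55 rose and 32 fell, beside 16.3% and 17.4% (61 and 39 with the block, beside 31.3% and 33.3%), and in Staufen against hnRNPab 31 rose and 50 fell, beside 16.5% and 16.3% (36 and 62 with the block, beside 33.1% and 31.5%). Directions in these last comparisons move with the table that names a gene and are not independent evidence for a list. Genes of the deposited hnRNPab table mostly ran lower in the libraries so labelled than in IgG libraries. Of tested genes in the deposited Staufen table, 70.5% were called higher in hnRNPab against IgG and 71.7% lower in Staufen against hnRNPab.

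Of 13 named genes of the nuclear exosome, its adaptors and cap-bound partners, 3 rose in Staufen against IgG, 1 fell and 9 did not pass (4 and 3 called with the block), with a median log2 fold change of 0.08. Those that rose were zcchc8.L, whose human counterpart is the scaffold that binds RBM7, at 187 ± 29.5 CPM in Staufen libraries and 114 ± 11.4 in IgG libraries (log2 0.71, SE 0.132, edgeR adjusted p = 0.00568), dis3l2.L, which encodes a cytoplasmic exonuclease (1.502-fold, adjusted p = 0.00108), and ncbp1.S, which encodes a cap-binding subunit (1.34-fold, 0.00953). The one that fell was exosc5.L, a core exosome subunit (log2 -0.77, adjusted p = 0.00447). Over IgG in hnRNPab libraries 9 rose and 3 fell, with xrn2.L, a nuclear exonuclease gene, at 2.65 and dis3l2.L at 2.10 on the log2 scale. The 9 that rose are named by the deposited Staufen table and the 3 that fell by the hnRNPab table. Among all tested genes 16.3% were called higher and 17.4% lower, and 70.5% of those in the Staufen table were called higher. The counts over the 13 include dis3l2.L and dis3l2.S, which encode a cytoplasmic exonuclease and no part of the nuclear exosome.

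Of 11 genes of RNA capping, decapping and triphosphate removal, dusp11.L was the one that rose in Staufen against IgG, and the other 10 did not pass. With the block 2 rose, dusp11.L and ddx6.L (adjusted p = 4.64e-08), and 2 fell, tgs1.L (1.02e-05) and cmtr2.L (3.43e-09). The median log2 fold change of the list was 0.07. Of 10 centriole and centrosome genes 0 rose and 0 fell in that comparison in edgeR's test, and 1 rose and 4 fell with the replicate block. Before adjustment 1 was higher and 1 lower at 0.05, and DESeq2 called 0 higher and 1 lower. The median of the 10 was -0.06, and the highest value was that of stil.S. In hnRNPab libraries 4 rose over IgG and 3 fell. Among those that rose were haus3.L, an augmin subunit of the spindle, by 2.90 and poc1a.L, a centriole protein gene, by 1.60 on the log2 scale. The 4 that rose are named by the deposited Staufen table and the 3 that fell by the hnRNPab table.

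Of 28 zinc finger genes listed with vezf1, 2 rose and 2 fell in Staufen against IgG (6 and 14 with the block), with a median log2 fold change of -0.14. The rises were plag1.L (1.51-fold, adjusted p = 0.00630, edgeR) and zbtb33.S (1.60-fold, 0.0460), and the falls were sp1.L (log2 -0.84, 0.00108) and hic2.S (-0.64, 0.0188). Leaving out any one of 10 libraries ended the zbtb33.S call (adjusted p 0.0535 to 0.120), the exceptions being Staufen library 1 and hnRNPab library 1, and hic2.S was lost without IgG library 2 or 3 or Staufen library 4 (up to 0.0623). Set against IgG, hnRNPab libraries held more of 6 and less of 13 of the 28, and 15 of the 28 are listed in the hnRNPab table alone. All these counts include zfp36l2.L and zfp36l2.S, which encode an RNA-binding protein with zinc fingers of another type than those of vezf1.

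The 6 named genes listed with tfap2c were both copies of sox3, foxi2 and grhl1, transcription factors of the animal cap. Whether their products act with that of tfap2c was not tested. All 6 failed the test in Staufen against IgG, with log2 fold changes of -0.52 to 0.38, beside 1.14 for tfap2c.S. With the block 4 rose and 1 fell, before adjustment 0 were higher and 1 lower at 0.05, and DESeq2 called 1 lower. All 6 rose in hnRNPab against IgG (median 1.66) and fell in Staufen against hnRNPab (median -1.56). All 6 are named by the deposited Staufen table alone. Of its tested genes 70.5% were called higher in the first of these comparisons and 71.7% lower in the second, so nothing is read from these counts. Of 11 immediate early genes 0 rose and 0 fell in Staufen against IgG by edgeR and by DESeq2, 2 were higher before adjustment and 3 rose with the block. Their median was 0.08, and 9 of the 11 rose in hnRNPab against IgG, among them btg3.S (log2 2.85) and klf4.L (1.22). The deposited Staufen table alone names 9 of the 11, and both tables name 2. In hnRNPab against IgG 16.3% of all tested genes and 70.5% of those in the Staufen table were called higher, so nothing is read from these rises. Of 16 protein phosphatase genes 0 rose and 2 fell in Staufen against IgG, epm2a.L (log2 -0.41, adjusted p = 0.00477) and dusp7.L (-0.66, 0.0457, lost under 13 of 18 alternatives), while cdc25a.S and cdc14b.S, which encode phosphatases of the cell cycle, rose by 2.68 and 2.06 in hnRNPab against IgG. With the block 3 of the 16 rose and 8 fell, DESeq2 called 1 higher and 2 lower, and before adjustment 2 were higher and 3 lower at 0.05. The median in Staufen against IgG was -0.06. In hnRNPab against IgG 10 of the 16 rose and 3 fell, and the deposited Staufen table alone names 11 of the 16. Given the shares above for that comparison, nothing is read from these rises either. Of 10 transport particle genes 3 rose in Staufen against IgG, stau1.S by 2.02-fold, which codes for a Staufen protein, caprin1.S by 1.55-fold and caprin1.L by 1.38-fold (adjusted p 0.00147 to 0.0172), and 4 rose and 4 fell with the block. Their median was -0.09. The caprin1.S call was lost without Staufen library 1 or IgG library 2, 3 or 4 (up to 0.0717). For caprin1.L, leaving out IgG library 2, IgG library 4 or Staufen library 2 had the same effect (up to 0.0650). In hnRNPab against IgG 4 of the 10 rose and 6 fell, and in Staufen against hnRNPab 5 rose and 2 fell. The deposited Staufen table alone names 4 of them and that of hnRNPab alone 6, so nothing is read from these counts. For stau1.S the log2 fold change was 0.87 in hnRNPab against IgG and 0.14 in Staufen against hnRNPab. The latter was not called under any of the 18 alternatives. Over these, caprin1.L lay at 1.32 to 1.46 and -0.96 to -0.86 in the same comparisons.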

How the data were processed

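The 12 libraries were sequenced from pulled-down oocyte RNA, and reads per gene over exons were counted with HTSeq 0.9.1 after alignment with STAR 2.6.1b, per the submitters' processing notes, which also name edgeR; the genome build is not given in the sources used here. Each deposited gene count was used unchanged. The authors' 2 deposited tables of hits give a log2 fold change, log2 CPM, an F statistic (a score), an FDR and a p-value per gene and pair gene identifiers with names; their fold changes were printed and their names used. Libraries were grouped by label, 4 a group.

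Counts were TMM-normalized and tested with edgeR 4.0.16 (R 4.3.3): quasi-likelihood F tests over all 12 libraries, 20803 of 51061 genes after its default filter, Benjamini-Hochberg adjustment over all of them, calls at 0.05. The standard error is the log2 fold change divided by the square root of F. Log2 CPM used a prior count of 2. A count of 0 allows up to 0.136 to 0.212 CPM (3 counts), and floors cover counting error only. The script was tested on simulated data that held no effect of replicate number. That test therefore says nothing on p-values under the pairing described below. Reads outside exons and ambiguous reads (0.521% to 0.791%) stayed out of library sizes. Homeolog ratios used two-sided exact permutation tests. The members and lists were chosen with earlier results of these data known. Genes are named here as members, as the next 3 by fold change, as the 2 nearest profiles per member, or as up to 4 list genes per comparison by adjusted p. Names matched 7 of the 8 to RefSeq symbols. The main edgeR fit and the permutation tests left replicate numbers out. The numbers appear to pair the samples, since all 12 same-number pairs of libraries from different groups had a correlation of deviations above 0.1 (0.783 to 0.875, against -0.508 to -0.0593 for different numbers). Deviations within a group cancel out, so positive correlations for the same number force those for different numbers to be negative on average. The pairing was seen in the data and is not stated by the labels. The replicate block and the sign flips, which use the pairing, are given as alternatives, and many calls depend on that choice. No library was a duplicate of another in its group: the chi-square per gene was 14.3 to 22.6 among numbers 2 to 4, and 31.9 to 61.3 for pairs with number 1. Pairs from different groups were not checked in this way. Alternatives were RLE size factors, DESeq2 1.42.0, no filter, the 2 groups alone, the replicate block, a prior count of 0.5 and leaving out each library; leaving out all libraries numbered 1 was chosen after seeing the data.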

Additional observations from a re-analysis of the deposited data

How the results depend on the processing

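Over 18 alternatives and 3 comparisons, 432 values of the 8 transcripts were compared with those reported. In Staufen against IgG, which chose them, all moved by less than their standard error, while the adjusted p of rbm7.S was above 0.05 without IgG library 2, Staufen library 3 or Staufen library 4 (up to 0.0631). In the other comparisons 6 gained a call, 4 lost one and 0 reversed. The calls of the 8 in hnRNPab against IgG were kept throughout. With the replicate block, 8 of the 8 were called in Staufen against hnRNPab in place of 4, and genes called numbered 8203 in Staufen against IgG (1618 without it), 13442 in hnRNPab against IgG (7005) and 13431 in Staufen against hnRNPab (6837). List genes called in Staufen against IgG numbered 63 with the block, 22 with DESeq2, 28 without the libraries numbered 1 and 14 as reported. DESeq2 called 2530 genes in that comparison, and 2631 were called without the libraries numbered 1. Leaving out 1 library at a time gave 1012 (without IgG library 2) to 1904 genes and 8 (without IgG library 2) to 19 list genes. Over the same omissions the difference in log2 homeolog ratio ran from -0.22 to -0.15 for vezf1 and from -0.70 to -0.42 for rbm7 in Staufen against hnRNPab, and from 0.55 to 0.83 for rbm7 in hnRNPab against IgG. Sign flips within replicate numbers, the paired form of the homeolog test, gave p = 0.125 to 0.375 for vezf1 and rbm7 and 0.125 to 0.625 for dusp11 and ier5l (exact). The cause of these changes was not tested. Depth limits stil.S, with 7 to 30 counts per library. Of 33 sets of 4 levels (11 genes under each of 3 labels), 0 held a level far from the other 3 by Dixon's criterion.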
